A study of Mus musculus with 10 samples.

Results

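The 29 genes described here mark T cells, cytotoxic and natural killer (NK) cells, and B cells, and were read in the livers of 10 mice given an adenovirus. They were chosen by name: 15 T cell genes, 8 cytotoxic and NK genes and 6 B cell genes, each read by the probe sets that the platform annotation gives to that gene alone. Such probe sets were found for 28 of the 29 genes, 45 probe sets in all, among 18193 genes and 45037 probe sets on the array. Lck, the kinase that starts T cell receptor signalling, had no such entry in the annotation used here and was not analysed here.

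Each array held liver RNA of 1 mouse, measured on Affymetrix 430 2.0 arrays. The 5 mice labelled dn-cJun (numbers 16 to 20) were described as ApoE-/- and had received an adenovirus that expresses dominant negative cJun. The 5 control mice (numbers 11 to 15) were also described as ApoE-/- and had received an adenovirus that expresses GFP, a fluorescent protein used as control cargo. All 10 mice therefore carried an adenovirus, and no mouse without virus was among them. cJun is a subunit of the transcription factor AP-1, and by its title the study asked about lipid homeostasis. Age, sex, dose, time after the virus and the promoter that drives its cargo are not given in the sources used here.

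Lymphocytes recognise antigen through receptors that signal by associated chains. In T cells these are the CD3 chains and the zeta chain, which recruit the kinase ZAP-70, and in B cells they are CD79a and CD79b. Cytotoxic T cells and NK cells kill by releasing perforin and granzymes from granules, and the liver is known as a tissue rich in NK cells and other resident lymphocytes. In whole liver RNA, fewer cells of a type and less RNA per cell cannot be told apart.

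Several facts of the arrays bear on every value below. Median deposited intensity lay between 85.1 and 127.1, and values are given as log2(intensity + 16) after quantile normalization. Apoe, the gene that the labels describe as lost, had a log2 signal of 15.31 to 15.82 in the arrays labelled dn-cJun and 9.42 to 10.94 in control arrays, a log2 difference of 5.41. The signal thus goes against the description of all mice as ApoE-/-, so the genotype or the group labels may be wrong. Every difference below, dn-cJun minus control, takes its sign from those labels. The groups were apart in Apoe, so differences tied to Apoe and differences tied to dominant negative cJun cannot be told apart here. Jun had a log2 difference of -0.07 (SE 0.16). Xist, which is made from the silenced X chromosome of females, had a log2 signal of 5.96 to 6.63 in the arrays labelled dn-cJun, against 5.90 to 6.72 in controls 11 to 13 and 13.71 and 13.63 in controls 14 and 15. The Y-linked Eif2s3y, a gene of males, was at 10.58 to 11.13 in the arrays labelled dn-cJun, against 10.99 to 11.06 in controls 11 to 13 and 5.22 and 4.08 in controls 14 and 15. By these genes, controls 14 and 15 had the pattern of females, and controls 11 to 13 and the arrays labelled dn-cJun that of males. Sex read in this way was thus not balanced between the groups. Member values without controls 14 and 15 are given below. RNA of control 11 was extracted with Trizol, which the entries of the other arrays do not name. Control 11 also had the highest median deposited intensity, 127.1, against 85.1 to 103.7 in the other arrays. A link between extraction and intensity was not tested. The liver label held: Alb and Ttr, the plasma proteins of hepatocytes, both had a percentile of 99.97 among all probe sets.

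Of the 28 genes, 16 were above the median of all probe sets in their mean over the arrays, namely 7 of 8 cytotoxic and NK genes, 6 of 14 T cell genes and 3 of 6 B cell genes. Among all 45 member probe sets, 21 were above it. For each gene the probe set of highest mean is used here, which can only raise the count of 16. The share of all genes above the median when read in this way is not given here. The chosen probe sets stood between percentile 21.4 (Cd4) and percentile 80.4 (Gzma). Only 6 genes were above the median of the array on all 10 arrays: Gzma, Gzmb, Klrk1, Nkg7, Klrd1 and Zap70. The 2 genes on either side of the limit of 6.66 were Cd5 at 6.70 and Ms4a1 at 6.57. Signals of different probe sets do not compare the abundance of their transcripts, since probes differ in brightness.

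Olfactory receptor genes were taken as genes that liver does not use, to give a view of how bright a probe set without its transcript can be. That they are silent in liver was assumed and not tested gene by gene. Their 44 probe sets had a median log2 signal of 5.33, an upper quartile of 5.62 and a highest value of 6.72. The highest was a probe set of Olfr78, whose other probe sets were at 4.74 to 5.02. Each member was read by its brightest probe set, while every olfactory receptor probe set was counted, which favours the members. The second Pax5 probe set, for example, was at 4.61. Of the member genes, 15 were above the brightest olfactory receptor probe set and 26 above the upper quartile of the 44. Cd27, a co-stimulatory receptor of T and B cells, at 5.58, and Cd4, the co-receptor of helper T cells, at 5.24, were below that quartile. Detection calls were not used here, so the members between these limits are given as values and not called detected or absent.

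**Figure D1:**
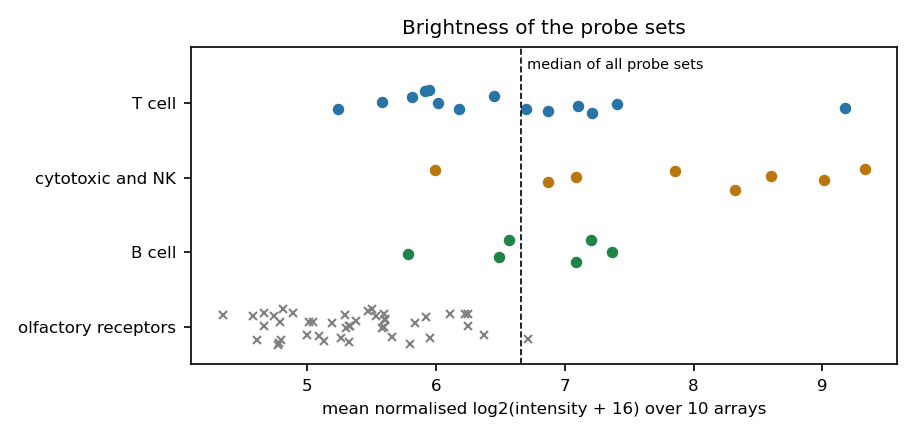
Mean normalised log2(intensity + 16) over 10 arrays (x axis) of the chosen probe set of each T cell, cytotoxic and NK, and B cell gene (circles) and of 44 olfactory receptor probe sets (crosses); vertical scatter within a row has no meaning. Most cytotoxic and NK genes lie right of the dashed median of all probe sets, and 1 olfactory receptor probe set does.

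No member passed the test between the groups. limma over all 45037 probe sets gave an adjusted p under 0.05 to 0 of the 28 genes, where 0.418% of all genes passed, and to 0 of the 45 member probe sets, where 0.329% of all probe sets passed. The smallest adjusted p of a member was 0.328 (Cd27). At an unadjusted p under 0.05 there were 3 of 28 genes, 2 higher and 1 lower, against 12.6% of all genes, 6.35% higher and 6.25% lower. Among the 45 member probe sets there were 4, against 10.5% of all probe sets. The members therefore stood near the background of these arrays. Without the intensity trend in limma the count was again 0. In that fit 4 of the 28 genes had an unadjusted p under 0.05. The share over all probe sets was 9.05%, and the share over all genes, the like measure, is not given for that fit. In 0 of the 28 genes were the ranges of the groups apart, against 3.22% of all genes.

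The median log2 difference over the 28 genes, dn-cJun minus control, was 0.12, against 0.0065 over all genes. It ran from -0.96 (Cd27) to 0.70 (Pax5), with 18 genes above 0 and 10 below. On the deposited scale, which shifted the median of all probe sets by -0.16, the counts turned to 10 above and 18 below and the member median to -0.07. Without controls 14 and 15 they were 23 above and 5 below, with a median of 0.21. Standard errors had a median of 0.24 for the 16 genes above the median of all probe sets and 0.36 for the other 12. In 17 of the 28 genes the whole 95% confidence interval lay within 1 log2 unit of 0.

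**Figure D2:**
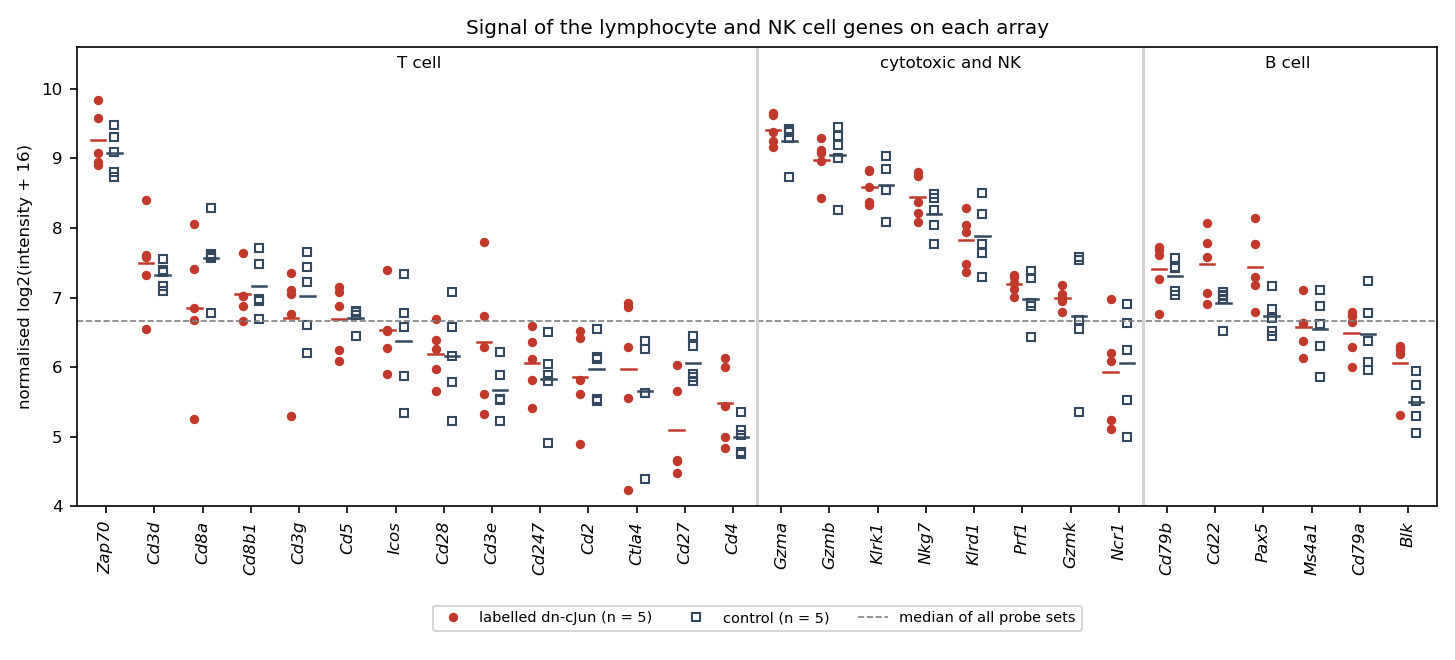
Normalised log2(intensity + 16) (y axis) of the 28 genes, with a point for each array labelled dn-cJun (filled circles, n = 5) and each control array (open squares, n = 5), short lines for group means and a dashed line for the median of all probe sets. The groups overlap in every gene shown.

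**Figure D3:**
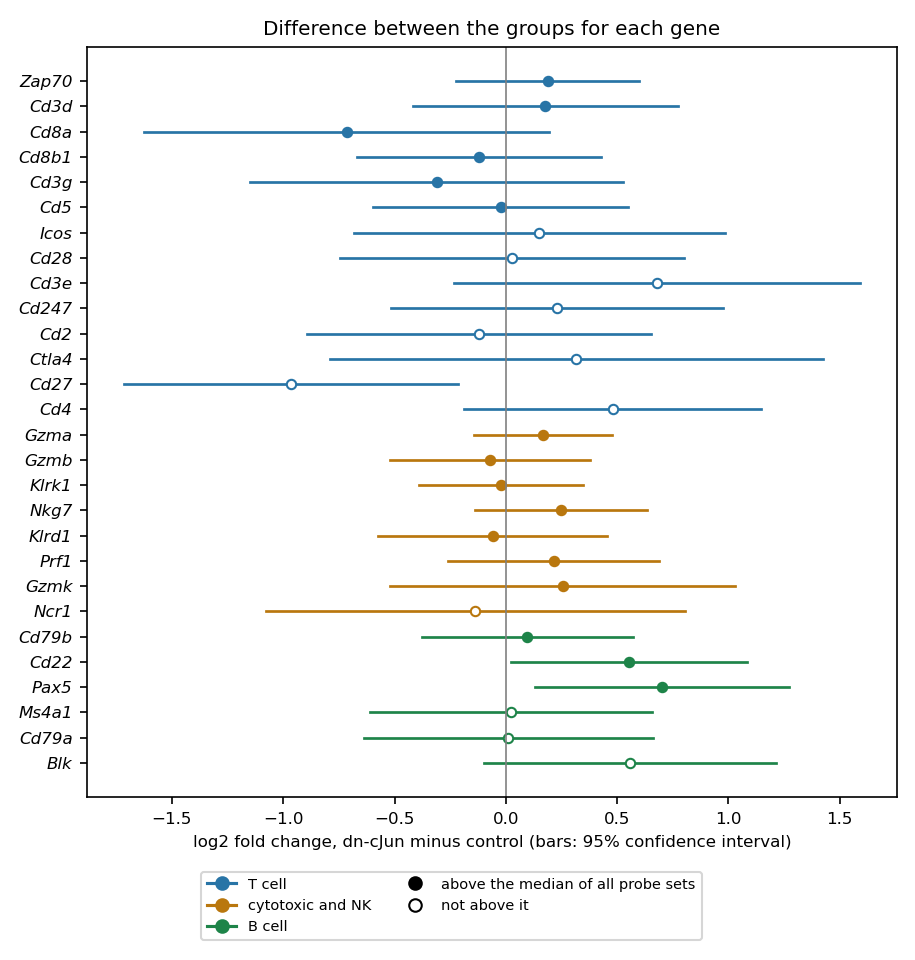
Log2 fold change, dn-cJun minus control, with its 95% confidence interval from limma (x axis) for each gene (y axis), coloured by lineage. Intervals of Gzma, Klrk1 and Nkg7 are among the narrowest, and those of Cd27, Cd22 and Pax5 do not include 0 before adjustment over all probe sets.

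The study tested a dominant negative form of cJun, so the promoter windows of the members were read for the letters to which AP-1 and the related CREB and ATF factors can bind. RefSeq windows of 300 bases, 250 before and 50 after the start (build GRCm38.p6), were at hand for 20 member genes in 24 windows. The AP-1 letters TGANTCA, which read the same on both strands, stood in 2 of the 24 member windows and in 7.81% of all 32851 windows. The letters TGACGTCA, also the same on both strands and without overlap with the first motif, stood in 1 member window and in 1.79% of all windows. A match describes letters and not a bound site. The 3 windows are shown because they are the member windows with a match, which is in capitals, and each runs 5′ to 3′ along the gene's strand.
Gzmb, minus strand of chr14:56262285-56262584: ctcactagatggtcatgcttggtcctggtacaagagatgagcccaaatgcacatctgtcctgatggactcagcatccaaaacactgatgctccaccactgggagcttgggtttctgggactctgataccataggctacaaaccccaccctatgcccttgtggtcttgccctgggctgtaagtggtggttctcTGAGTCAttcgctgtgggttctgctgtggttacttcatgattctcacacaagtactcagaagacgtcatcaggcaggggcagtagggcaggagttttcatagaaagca
Klrk1, minus strand of chr6:129623815-129624114: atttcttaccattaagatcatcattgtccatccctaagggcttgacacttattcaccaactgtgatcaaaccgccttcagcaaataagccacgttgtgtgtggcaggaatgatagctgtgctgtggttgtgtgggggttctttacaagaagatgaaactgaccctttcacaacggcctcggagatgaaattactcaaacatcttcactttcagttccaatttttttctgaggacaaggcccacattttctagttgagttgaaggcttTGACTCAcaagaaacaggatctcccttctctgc
Zap70, plus strand of chr1:36761548-36761847: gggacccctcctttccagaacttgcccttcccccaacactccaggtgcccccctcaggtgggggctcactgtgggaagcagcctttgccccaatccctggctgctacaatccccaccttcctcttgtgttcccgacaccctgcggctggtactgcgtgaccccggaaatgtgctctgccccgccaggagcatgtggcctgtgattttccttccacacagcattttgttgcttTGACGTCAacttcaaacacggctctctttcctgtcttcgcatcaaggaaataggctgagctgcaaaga
The match began 58 bases before the start in Gzmb and 18 bases before it in Zap70, and lay after the start in Klrk1. These 3 genes were among the 6 that were above the median on every array, but a link between match and signal was not tested. Their log2 differences were -0.07 (SE 0.21) for Gzmb, -0.02 (SE 0.17) for Klrk1 and 0.19 (SE 0.19) for Zap70.

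No gene of the cytotoxic granules passed the test between the groups. Gzma encodes granzyme A, a granule protease. Its log2 signal was 9.17, 9.37, 9.25, 9.65 and 9.63 in dn-cJun 16 to 20, against 9.37, 8.73, 9.30, 9.42 and 9.41 in controls 11 to 15. Control 12 was lowest, and the other 9 arrays lay close together. The means were 9.41 ± 0.22 in dn-cJun and 9.25 ± 0.29 in control arrays (SD, n = 5 each), a log2 difference of 0.17 with a 95% interval of -0.14 to 0.48 (limma adjusted p = 0.756). The difference turned to -0.05 with the values as deposited.

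Gzmb encodes granzyme B, the protease that triggers apoptosis in target cells. On the log2 scale it had 8.43, 8.96, 9.11, 9.29 and 9.07 in dn-cJun 16 to 20, against 9.19, 8.25, 9.0, 9.45 and 9.32 in controls 11 to 15. The low arrays were dn-cJun 16 and control 12, 1 in each group. The means were 8.97 ± 0.33 in dn-cJun and 9.04 ± 0.47 in control arrays (SD, n = 5 each), with an interval of the difference of -0.52 to 0.38 (limma adjusted p = 0.944). Without controls 14 and 15 the log2 difference was 0.16.

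Nkg7, a membrane protein of cytotoxic granules, had 8.21, 8.37, 8.09, 8.81 and 8.75 in dn-cJun 16 to 20, against 8.49, 7.77, 8.26, 8.43 and 8.04 in controls 11 to 15. Arrays dn-cJun 19 and 20 were highest and control 12 lowest. Nkg7 differed by 0.25 on the log2 scale (SE 0.18, 95% interval -0.14 to 0.63, limma adjusted p = 0.698). Prf1 encodes perforin, which forms the pores through which granzymes enter. It had 7.13, 7.33, 7.29, 7.21 and 7.01 in dn-cJun 16 to 20, against 6.92, 6.43, 7.29, 7.38 and 6.89 in controls 11 to 15. The arrays labelled dn-cJun lay close together, and the controls spread around them. The log2 difference of Prf1 was 0.21 (SE 0.22), and its second probe set gave -0.11, with an SD of 1.07 in dn-cJun and 0.53 in control arrays. Gzmk, granzyme K, had 7.0, 6.95, 7.18, 6.80 and 7.05 in dn-cJun 16 to 20, against 7.58, 6.54, 5.36, 6.68 and 7.54 in controls 11 to 15. Its SD was 0.14 in dn-cJun and 0.91 in control arrays, where control 13 was lowest. The difference between these SDs was not tested. Gzma and Gzmk are neighbouring genes on chromosome 13.

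No NK cell receptor gene passed the test either. Klrk1 encodes NKG2D, the receptor for stress-induced ligands. It had 8.37, 8.84, 8.59, 8.33 and 8.81 in dn-cJun 16 to 20, against 8.55, 8.09, 8.54, 9.03 and 8.84 in controls 11 to 15. Controls held both the highest and the lowest array. Its 95% interval of the difference, -0.39 to 0.35, was among the narrowest of the members (limma adjusted p = 0.981). Klrd1 encodes CD94, the partner chain of the NKG2 receptors, and lies beside Klrk1 on chromosome 6. It had 7.94, 8.04, 7.37, 8.28 and 7.48 in dn-cJun 16 to 20, against 7.64, 7.30, 7.77, 8.21 and 8.50 in controls 11 to 15, with both groups spread over about the same range. For Klrd1 the difference was -0.06 (SE 0.24), and 0.25 without controls 14 and 15. Ncr1, which encodes NKp46 and defines NK cells, was the only one of the 8 not above the median, at percentile 38.7. It ranged from 5.12 to 6.97 in the arrays labelled dn-cJun and from 4.99 to 6.90 in controls (log2 difference -0.14, SE 0.44).

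The cytotoxic and NK genes above the median were low together in 1 control array. Control 12 was the lowest array in 6 of the 7 cytotoxic and NK genes above the median and below the gene's mean in all 7. The mean of these genes, each centred over the arrays, was -0.12, 0.11, -0.03, 0.19 and 0.11 in dn-cJun 16 to 20, against 0.10, -0.56, -0.22, 0.22 and 0.21 in controls 11 to 15. The groups overlapped, and control 12 lay apart from the other arrays. Ncr1, which was not above the median, was not low in control 12, at 6.24 against its mean of 5.99 over the arrays.

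The summed signal of other lists was low in control 12 too. For 16 pan-leukocyte genes it was 16058 to 18520 in the arrays labelled dn-cJun and 13692 to 25371 in controls, and control 12 had that lowest value. Control 12 was also lowest of the 10 arrays in 23 other cytotoxic and NK genes, 30 other T cell genes and 11 neutrophil genes. In 17 macrophage and Kupffer cell genes control 12 had 48441, below the other controls at 60091 to 68296. The lowest array in that list was dn-cJun 19, at 46982. In 8 hepatocyte genes the sum was 327627 to 347894 in the arrays labelled dn-cJun and 314359 to 334134 in controls, and control 12 had that highest control value. Controls 14 and 15 had the highest leukocyte sums, 25371 and 21492. The part of these sums in the differences of single members was not tested.

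Over the 10 arrays, 20 of the 21 pairs among these 7 genes had a Pearson correlation above 0, with a median of 0.48. Gzma and Nkg7 had r = 0.87 (permutation p = 0.0007, adjusted over 21 pairs 0.0147) and Spearman rho = 0.76 (permutation p = 0.0152, adjusted 0.319). Without the 2 arrays farthest in Gzma, dn-cJun 19 and control 12, r was 0.72. Their r was 0.85 over deviations from the group means, and 0.96 without controls 14 and 15. Gzma and Gzmb had r = 0.80 (permutation p = 0.00461, adjusted 0.0484) and rho = 0.70 (permutation p = 0.0307, adjusted 0.323), and r = 0.54 without the same 2 arrays. No other pair had an adjusted p under 0.05 for r, and no pair had one for rho. Without control 12 the median r over the pairs was 0.11, with 13 of 21 pairs above 0, so the positive median rests largely on that array. All genes share the array and its scaling.

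**Figure D4:**
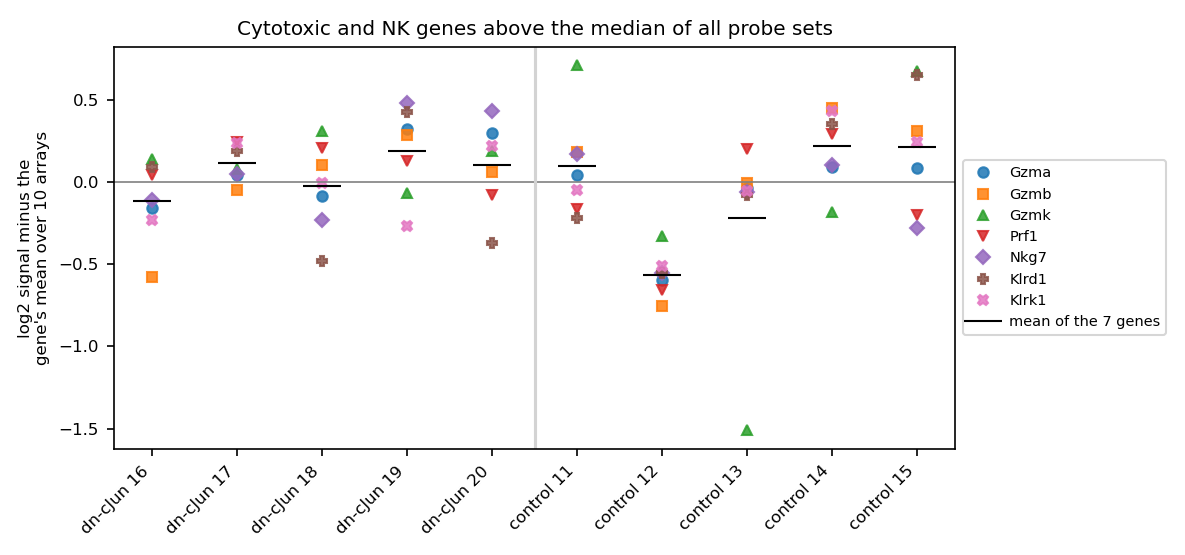
Log2 signal minus the gene's mean over the 10 arrays (y axis) for the 7 cytotoxic and NK genes above the median, by array (x axis), with black lines for their mean. Control 12 sits at -0.56 on average, and the other arrays lie between -0.22 and 0.22.

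**Figure D5:**
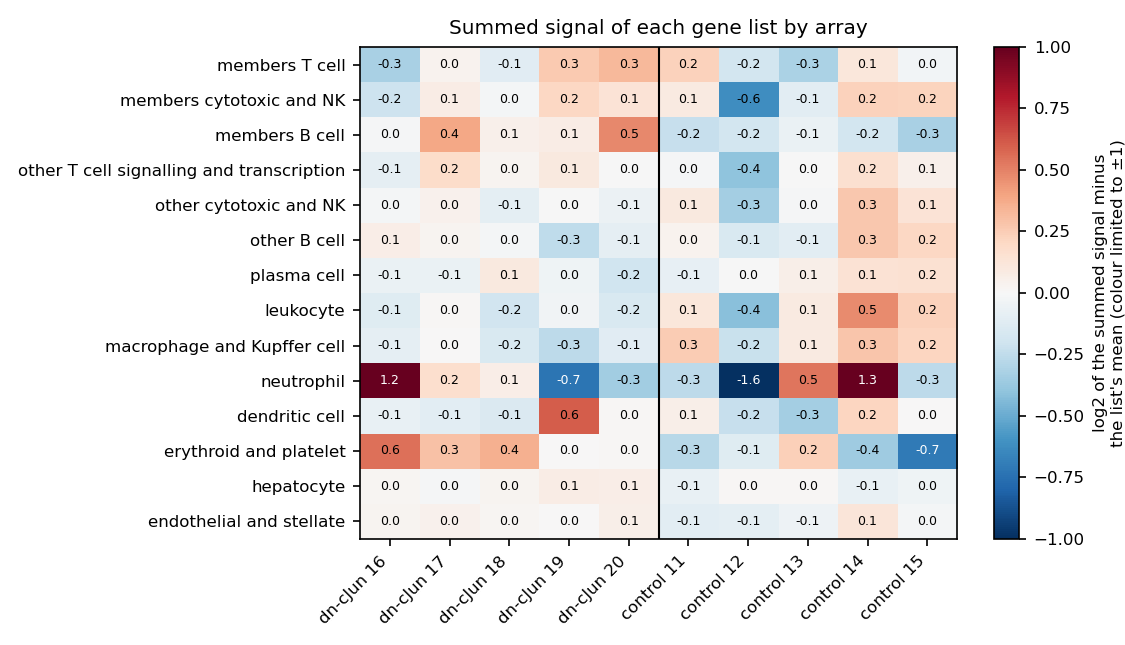
Log2 of the summed signal of each gene list minus the list's mean over the arrays, by array (columns) and list (rows). Control 12 has the lowest sum in 5 of the 14 lists, and control 14 the highest in 7.

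The T cell receptor chains and their signalling partners did not pass the test. Cd3d had 6.55, 7.33, 7.59, 8.41 and 7.61 in dn-cJun 16 to 20, against 7.40, 7.10, 7.37, 7.56 and 7.17 in controls 11 to 15. Arrays dn-cJun 16 and 19 marked both ends of the range, outside all controls. Cd3d differed by 0.18 on the log2 scale (SE 0.28, limma adjusted p = 0.885). Cd3e, the chain most often used to mark T cells, had 6.29, 5.33, 5.61, 7.81 and 6.74 in dn-cJun 16 to 20, against 5.89, 5.22, 5.54, 5.53 and 6.22 in controls 11 to 15. Array dn-cJun 19 was highest for Cd3e as well as Cd3d. Its log2 difference was 0.68 (SE 0.43, limma adjusted p = 0.631), and 0.32 to 0.94 with 1 array left out. Cd3g had 7.05, 6.76, 7.35, 7.11 and 5.30 in dn-cJun 16 to 20, against 7.22, 6.60, 6.20, 7.44 and 7.66 in controls 11 to 15, and dn-cJun 20 was lowest. Its log2 difference was -0.31 (SE 0.39). Cd3g, Cd3d and Cd3e are neighbours on chromosome 9 with no gene between them, and their products form 1 receptor complex, yet their differences had no common sign. Cd247, the zeta chain, had 4 probe sets with log2 differences between -0.62 and 0.79, none above the median.

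Zap70, the kinase that binds the phosphorylated receptor chains, had the highest percentile of the T cell members, 78.9. It had 8.91, 9.58, 9.07, 8.94 and 9.84 in dn-cJun 16 to 20, against 9.48, 9.30, 8.73, 9.09 and 8.80 in controls 11 to 15. The groups covered nearly the same range. The log2 difference was 0.19 (95% interval -0.22 to 0.60, limma adjusted p = 0.802). Its other 2 probe sets, both above the median, gave 0.61 and 0.46. The 0.46 came from a probe set whose name ends in _x_at, which marks probes that may also bind other transcripts. The 0.61 was the only member value outside the chosen probe sets at an unadjusted p under 0.05 (0.0312, limma adjusted p = 0.412).

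No T cell co-receptor passed the test, and their probe sets differed among themselves. Cd8b1, the beta chain of the CD8 co-receptor, had 6.67, 7.02, 6.87, 7.64 and 7.02 in dn-cJun 16 to 20, against 6.69, 6.95, 6.98, 7.72 and 7.49 in controls 11 to 15. The lowest values of the groups were close, and control 14 was highest. The log2 difference was -0.12 (SE 0.26). Cd8a, the alpha chain and neighbour of Cd8b1 on chromosome 6, had 6.86, 6.68, 5.26, 7.42 and 8.06 in dn-cJun 16 to 20, against 8.28, 7.57, 7.62, 7.60 and 6.78 in controls 11 to 15. Array dn-cJun 18 was lowest by more than a log2 unit. The log2 difference was -0.72 (SE 0.42, limma adjusted p = 0.607), but the other 4 Cd8a probe sets gave -0.26 to 0.24. The chosen probe set has a name that ends in _x_at, which on these arrays marks probes that may also bind other transcripts. Cd5, which dampens receptor signalling, had 6.09, 7.08, 6.87, 7.15 and 6.24 in dn-cJun 16 to 20, against 6.81, 6.44, 6.75, 6.79 and 6.75 in controls 11 to 15. The controls lay inside the range of the arrays labelled dn-cJun (log2 difference -0.02, SE 0.27). Cd4 had log2 differences of 0.48 and -0.51 at its 2 probe sets, neither above the median.

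Cd27 had the smallest p of the members. Its log2 signal was 5.66, 4.67, 4.49, 6.04 and 4.66 in dn-cJun 16 to 20, against 6.45, 5.86, 5.80, 5.90 and 6.31 in controls 11 to 15. Arrays dn-cJun 16, 17, 18 and 20 were below every control, and dn-cJun 19 lay within their range. The means were 5.10 ± 0.70 in dn-cJun and 6.07 ± 0.29 in control arrays (SD, n = 5 each), a log2 difference of -0.96 with a 95% interval of -1.72 to -0.21 (unadjusted p = 0.0154, limma adjusted p = 0.328). It stayed between -1.20 and -0.81 with any 1 array left out, and did not pass in these fits. The probe set was below the median of its array on all 10 arrays, at percentile 29.8, a level that olfactory receptor probe sets also reach. The co-stimulatory receptors Cd28 and Icos and the inhibitory receptor Ctla4, neighbours on chromosome 1, were also not above the median. Their log2 differences were 0.03 (SE 0.36), 0.15 (SE 0.39) and 0.32 (SE 0.52). The other probe set of Cd28 gave -0.64, and the other probe sets of Icos gave -0.60 and -0.14. Cd2, an adhesion receptor, gave -0.12 (SE 0.36).

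All 6 B cell members had a log2 difference above 0, with a median of 0.33, though none passed the test. The 6 differences were above 0 with equal array medians as well. With the mean of all probe sets of a gene 5 of 6 were above 0. Only 3 of 6 were with the values as deposited, and 4 of 6 without controls 14 and 15. Pax5, the transcription factor that fixes B cell identity, had 6.80, 7.18, 7.77, 7.30 and 8.14 in dn-cJun 16 to 20, against 6.45, 6.84, 7.17, 6.53 and 6.70 in controls 11 to 15. Arrays dn-cJun 17 to 20 were above every control, and dn-cJun 16 lay within their range. The means were 7.44 ± 0.52 in dn-cJun and 6.74 ± 0.28 in control arrays (SD, n = 5 each), a log2 difference of 0.70 with an interval of 0.13 to 1.27 (unadjusted p = 0.0196, limma adjusted p = 0.353). The second Pax5 probe set, at percentile 4.78, gave 0.48.

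Cd22, an inhibitory co-receptor of B cells, had 6.90, 7.78, 7.06, 7.59 and 8.07 in dn-cJun 16 to 20, against 7.03, 7.02, 6.52, 6.98 and 7.08 in controls 11 to 15. Arrays dn-cJun 17, 19 and 20 were above every control. The log2 difference was 0.55 (95% interval 0.025 to 1.08, unadjusted p = 0.0413, limma adjusted p = 0.449), and the second probe set gave 0.08. Cd79b, a signalling chain of the B cell receptor, had 7.61, 7.73, 7.69, 7.26 and 6.77 in dn-cJun 16 to 20, against 7.04, 7.09, 7.44, 7.57 and 7.43 in controls 11 to 15, and dn-cJun 20 was lowest. Its log2 difference was 0.10 (SE 0.22). The partner chain Cd79a gave 0.01 (SE 0.30) and Ms4a1, which encodes CD20, 0.02 (SE 0.30). The second Ms4a1 probe set, at percentile 17.4, gave -0.26. Blk, a kinase of B cell receptor signalling, gave 0.56 (SE 0.31, limma adjusted p = 0.566) and was below the median on all arrays. Array dn-cJun 20 was thus highest in Pax5 and Cd22 and lowest in Cd79b.

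The summed signal of the 6 B cell genes was 608 to 853 in the arrays labelled dn-cJun and 489.5 to 586 in controls. With the values as deposited the ranges overlapped, at 562 to 844 in dn-cJun and 512.7 to 699.9 in control arrays. With equal array medians they were apart, at 614.5 to 813.1 in dn-cJun and 492.7 to 586.3 in control arrays. Among the 14 gene lists, B cell members included, the sums of the groups were apart in 1 with quantile normalization, in 2 with equal medians and in 0 with the values as deposited. Of 19 other B cell genes with a probe set, 7 were above 0 and 12 below, with a median of -0.13, and none passed. Ebf1, a partner of Pax5 in B cell identity, had the smallest p among them and stood at percentile 31.2. Its log2 difference was 0.84 (SE 0.37, limma adjusted p = 0.437). Of 7 plasma cell genes 4 were above 0, with a median of 0.15 that turned to -0.07 with the values as deposited. Sdc1, which hepatocytes also express, had the smallest p there, with a log2 difference of -0.15 (SE 0.07, limma adjusted p = 0.472).

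The other lists of T cell and cytotoxic genes also held no member past the threshold. Of 30 other T cell genes, 16 were above 0 and 14 below, with a median of 0.03, and none passed or had an unadjusted p under 0.05. Fyn, a kinase related to Lck, had the smallest p, with a log2 difference of 0.25 (SE 0.12, limma adjusted p = 0.483). Of 23 other cytotoxic and NK genes, 8 were above 0 and 15 below, with a median of -0.12 and none past the threshold. Ctsw, a cathepsin of cytotoxic cells, had the smallest p, with a log2 difference of 0.57 (SE 0.29, limma adjusted p = 0.510).

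Other blood cell lists bear on what the samples held. Of 16 pan-leukocyte genes 13 were below 0, with a median of -0.13, and 1 passed: Laptm5 fell by 1.02 on the log2 scale (SE 0.11, limma adjusted p = 0.00186), while its 4 other probe sets gave -0.31 to 0.23. The name of the Laptm5 probe set that passed also ends in _x_at. Of 17 macrophage and Kupffer cell genes 12 were below 0, with a median of -0.16, and 2 passed. Lyz2, which encodes lysozyme, fell by 0.70 (limma adjusted p = 0.0308). Cd5l, whose product macrophages secrete, fell by 0.57 (limma adjusted p = 0.0395). Whether the lymphocyte genes differed from the macrophage genes in their response was not tested. All 8 hepatocyte genes were above 0, against 51.1% of all genes, with a median of 0.04, and none passed. They were above 0 also with the values as deposited and with equal array medians. At an unadjusted p under 0.05 there were 2 of them, against 12.6% of all genes. These were Tat and Hnf4a, with log2 differences of 0.79 and 0.21. At that limit there were 2 of the 16 pan-leukocyte genes and 4 of the 17 macrophage and Kupffer cell genes, all lower. The part of this hepatocyte signal in the member differences was not tested. No gene passed among 11 neutrophil genes, 8 dendritic cell genes, 6 erythroid and platelet genes or 12 endothelial and stellate genes. The genes with the smallest p in these lists were Mmp8, Siglech, Alas2 and Pdgfrb. Their log2 differences were 0.51, 0.70, 0.91 and -0.55. Of these, Alas2 and Pdgfrb had an unadjusted p under 0.05.

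Probe sets of the same member often disagreed. Of 10 members with more than 1 probe set, 3 had a single sign (Zap70, Cd22 and Pax5) and 7 had both signs. When each gene was read by the mean of its probe sets, 14 members were above 0 and 14 below, with a median of -0.0012, and none passed.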

How the data were processed

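Total RNA from the liver of 10 mice, 1 array each, was measured. The authors deposited a linear intensity for each probe set; the software that summarised probes is not stated in the sources used here. They were taken as log2(intensity + 16) and quantile normalized (limma 3.58.1, R 4.3.3). Of 45101 probe sets, 64 controls were left out afterwards. Of the rest, 34945 had 1 gene symbol, and the 28 members' identifiers matched the mouse gene table of GRCm38.p6. Groups follow the sample titles. They were compared as dn-cJun minus control by lmFit and eBayes (intensity trend on, two-sided tests), with Benjamini-Hochberg adjustment over all 45037 probe sets, a threshold of 0.05 and no filter on low values. At a filter at the 40th percentile, 20 members passed. Percentiles are of the mean over all arrays. Correlations over the 10 arrays used 100000 permutations, two-sided. The fit was tested on simulated data. The members and lists were chosen with earlier results of these data known. Members above the median or with an unadjusted p under 0.05 were given in full, with further members as examples, and from each other list the genes past the threshold or the gene with the smallest p. The number of arrays limits the precision.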

Additional observations from a re-analysis of the deposited data

Results flagged for a closer look

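In 5 of 56 groups of 5 arrays, 1 array lay far from the other 4, with a gap of more than 0.71 of the group's range. Chance gives such a gap in about 1 in 20 groups. Control 12 was low in Gzma, at 8.73 against 9.30 to 9.42 in the other controls, and in Cd5, at 6.44 against 6.75 to 6.81. Control 13 was low in Cd22, at 6.52 against 6.98 to 7.08. Array dn-cJun 20 was low in Cd3g, at 5.30 against 6.76 to 7.35 in the other arrays labelled dn-cJun, and dn-cJun 18 was low in Blk, at 5.31 against 6.19 to 6.30.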

How the results depend on the processing

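No member passed the threshold in any of the 19 alternatives run. No paired analysis was possible because the replicate numbers do not repeat between the groups. The count of probe sets past the threshold, 148, was 404 with the values as deposited (24 higher and 380 lower, against 58 and 90), 20 in eBayes without the intensity trend, 61 without controls 14 and 15, and between 42 and 207 with each array left out in turn (42 without dn-cJun 17, 207 without control 12). The median of the members, 0.12, was -0.070 with the values as deposited, -0.0012 with the mean of all probe sets of a gene, and between 0.02 and 0.18 with 1 array left out. In 10 of the 28 members the sign held in every alternative that gave a value.

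No member that turned sign had passed the test. With the values as deposited these were Cd3d (-0.040), Cd28 (-0.11), Icos (-0.012), Zap70 (-0.029), Gzma (-0.045), Cd79a (-0.13), Cd79b (-0.10) and Ms4a1 (-0.12). With a pseudocount of 64 they were Cd28 (-0.0074) and Cd79a (-0.0019). With the mean of all probe sets they were Cd4 (-0.014), Cd28 (-0.30), Icos (-0.19) and Ms4a1 (-0.12). Without controls 14 and 15 they were Cd2 (0.13), Cd3g (0.034), Cd5 (0.017), Cd8b1 (0.17), Gzmb (0.16), Klrd1 (0.25), Klrk1 (0.19), Cd79a (-0.29) and Ms4a1 (-0.18). With 1 array left out the log2 difference ran from -0.29 to 0.12 for Cd2, -0.052 to 0.41 for Cd3d, -0.52 to 0.042 for Cd3g, -0.14 to 0.12 for Cd5, -0.27 to 0.017 for Cd8b1, -0.21 to 0.26 for Cd28, -0.11 to 0.39 for Icos, -0.27 to 0.064 for Gzmb, -0.089 to 0.46 for Gzmk, -0.21 to 0.095 for Klrd1, -0.15 to 0.083 for Klrk1, -0.40 to 0.074 for Ncr1, -0.12 to 0.20 for Cd79a and -0.15 to 0.16 for Ms4a1. The cause of these changes was not tested.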
